A study of Drosophila melanogaster with 24 samples.

Results

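The genes described here encode the subunits of the Drosophila proteasome. Members were all probes whose only gene symbol began with Prosalpha, Prosbeta, Rpn or Rpt followed by a digit, or was an older name of the same kind. The rule found 42 probes for 41 genes among the 14444 probes analysed, out of 48 subunit and paralog genes in the RefSeq gene table. The members comprised 7 alpha ring probes, 6 beta ring probes (Prosbeta7 had 2), 4 Rpt probes, 10 Rpn probes and 15 probes for paralogs, the additional gene copies that resemble a subunit. Prosbeta1, Prosbeta6, Rpn9, Rpn10 and Rpt6R were not analysed here. Rpt1 and Rpt6 could be assigned to a probe only through the study's own tables of changed genes, so their values are given separately, are a selection on the outcome, and enter no count unless stated.

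The proteasome degrades proteins that carry ubiquitin chains. Its 20S core is a barrel of stacked rings: outer alpha rings gate the entrance and inner beta rings hold the catalytic sites, of which Prosbeta2 carries the trypsin-like and Prosbeta5 the chymotrypsin-like activity. The 19S particle caps the barrel: a ring of Rpt ATPases unfolds the substrate, and the Rpn subunits build the scaffold and the lid, bind ubiquitin (Rpn1, Rpn10, Rpn13) and remove it (Rpn11). Each assembled core or cap holds its subunits in fixed proportion. Several paralogs, such as Prosalpha3T and Prosalpha6T, are known from the male germ line of Drosophila.

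Su(Hw) is the zinc finger protein that binds the gypsy insulator. The su(Hw) null animals (su(Hw)/Df, called the null below) carried the su(Hw)v mutation and the transgene P[CaS X/K5.3] on the same chromosome, over the deletion Df(3R)ED5644. The control heterozygotes carried either that su(Hw)v chromosome (su(Hw)/+) or Df(3R)ED5644 (Df/+) over an Oregon-R chromosome, and were included because of possible background effects. RNA from whole animals at the white pre-pupal stage (10 or 20 larvae per tube) or from wing imaginal discs was hybridised against 1 pooled wild-type RNA per tissue, on 4 arrays for each genotype and tissue, 24 arrays in all. Nulls came from a cross of both mutant stocks and heterozygotes from an outcross, both picked as non-Tubby animals, and the sex of the animals was not given.

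Every value below is the log2 ratio of the genotype to the wild-type pool, or a difference between such ratios. The spread of the pool, which is a single RNA shared by all arrays of a tissue, is not part of any error. The su(Hw) ratio was between -3.36 and -2.19 on the 4 null larval arrays and between -2.99 and -1.52 on the 4 null disc arrays. Larval arrays gave values for 63.1% to 80.8% of probes. In discs 3 arrays gave values for under 50% of probes, namely the second array of the null (34.4%), the second of su(Hw)/+ (41.9%) and the fourth of Df/+ (44.6%).

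In whole larvae, 3 of the 4 19S ATPase members (Rpt2, Rpt3 and Rpt4) were called higher than the pool in each genotype. Among the Rpn genes, Rpn7 and Rpn8 were called higher in each genotype, and Rpn2 and Rpn13 only in some. The 20S beta ring genes as a class lay close to the pool. In su(Hw)/Df larvae, 8 of the 40 members with enough values were higher than the pool and 1 was lower (limma, Benjamini-Hochberg adjusted p under 0.05), which is 20.0% and 2.50% of those tested. Over all 9554 probes tested, 14.5% were higher and 13.2% lower. With the paralogs counted, the share of higher members in this genotype was thus not far above that of all probes. Without the paralogs it was 8 of 27 (29.6%). In su(Hw)/+ larvae 11 of 36 were higher and 5 lower, beside 14.6% and 13.7% of all probes, and without the paralogs 11 of 26 (42.3%) were higher. In Df/+ larvae 9 of 41 were higher and 1 lower, beside 9.38% and 10.3% of all probes, and without the paralogs 9 of 27 (33.3%) were higher. Leaving out Df/+ replicate 2, 3 or 4 took the higher members in Df/+ from 9 to 5, and fitting only the genotype compared gave 4 higher in Df/+ and 4 in the null. Without Df/+ replicate 3 or 4, Rpt4 had too few values to be tested, so not all of that fall was lost calls. All of these tests use the same pool RNA and are therefore not independent of each other. The median ratio over the members tested was 0.11, 0.14 and 0.06 in su(Hw)/Df, su(Hw)/+ and Df/+ larvae, beside 0.03, 0.08 and -0.02 over all probes.

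**Figure D1:**
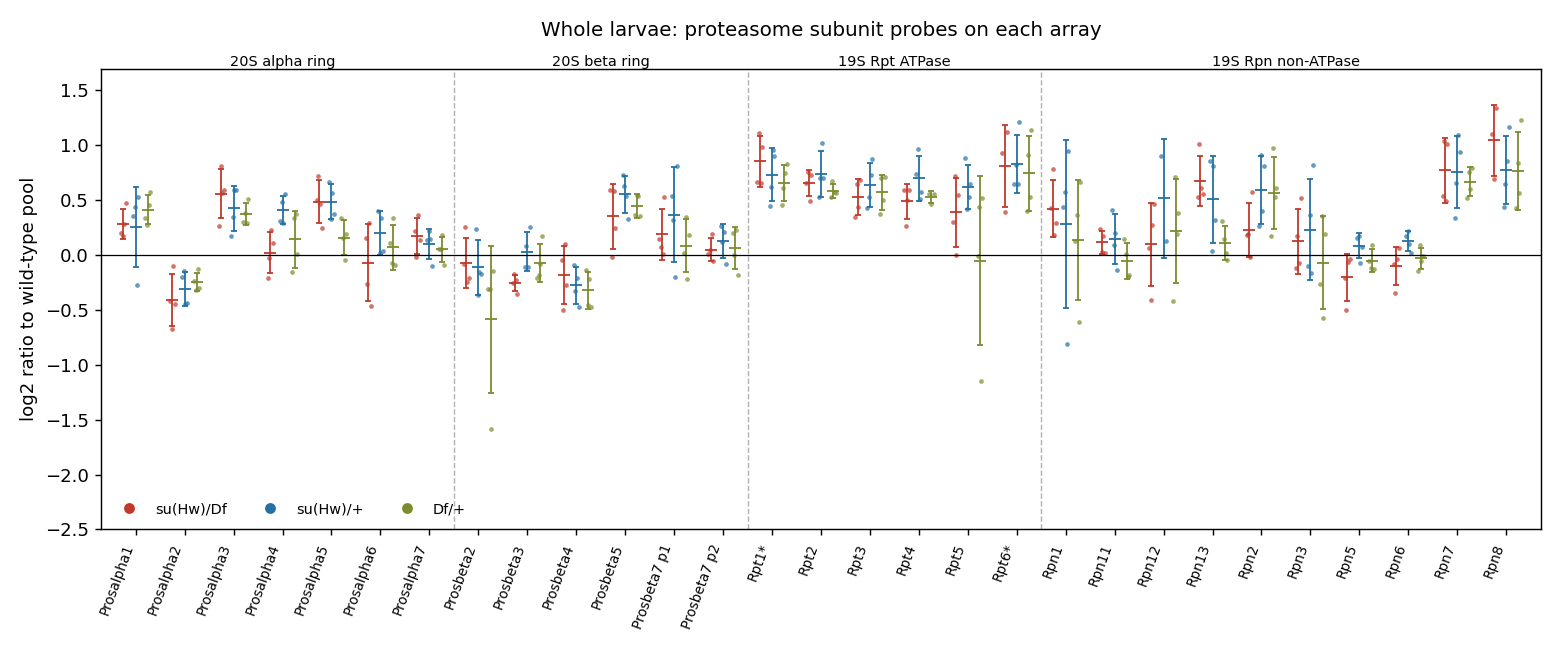
Log2 ratio to the wild-type pool (vertical axis) of each subunit probe in whole larvae; points are single arrays, horizontal ticks are genotype means and bars are SDs over up to 4 arrays, coloured by genotype, and asterisks mark Rpt1 and Rpt6, which could be named only from the study's tables of changed genes. The Rpt2, Rpt3 and Rpt4 points all lie between 0.26 and 1.02, while all 12 Prosalpha2 points lie below 0.

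Of the 4 Rpt ATPases among the members, 3 were called higher than the pool in every larval genotype. The shares of all probes called higher were 14.5%, 14.6% and 9.38% in su(Hw)/Df, su(Hw)/+ and Df/+. For Rpt2, the ratios on arrays 1 to 4 were 0.66, 0.76, 0.49 and 0.73 in the null, 0.52, 0.71, 1.02 and 0.70 in su(Hw)/+, and 0.53, 0.68, 0.58 and 0.56 in Df/+. All 12 arrays were above 0 and the genotypes overlapped. The mean of 0.66 ± 0.12 (SD, n = 4) in the null was 1.58-fold above the pool (adjusted p = 0.000743), and the means of 0.74 ± 0.21 (SD, n = 4) in su(Hw)/+ and 0.59 ± 0.063 (SD, n = 4) in Df/+ also passed the test.

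Rpt3 gave 0.34, 0.65, 0.44 and 0.69 in the null, 0.43, 0.53, 0.73 and 0.88 in su(Hw)/+, and 0.38, 0.70, 0.50 and 0.71 in Df/+. Rpt4 gave 0.60, 0.26, 0.50 and 0.59 in the null, 0.74, 0.97, 0.51 and 0.58 in su(Hw)/+, and 0.56, 0.47 and 0.56 in Df/+ (no value on replicate 2). Neither gene had an array at or below 0, and both were called higher in each genotype, by 1.40-fold (Rpt4) and 1.44-fold (Rpt3) in the null. When only the null arrays were fitted, neither null call passed, and the Rpt4 call in Df/+ was lost when only the Df/+ arrays were fitted or arrays were centred on their medians.

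Rpt5 was more scattered. Its ratios were 0.30, 0.72, -0.0004 and 0.54 in the null, 0.89, 0.42, 0.53 and 0.65 in su(Hw)/+, and -0.0054, 0.44, -1.15 and 0.52 in Df/+. The low array was Df/+ replicate 3, and Rpt5 passed the test in no genotype (adjusted p = 0.212 in the null, 0.0514 in su(Hw)/+ and 0.901 in Df/+). The probes assigned to Rpt1 and Rpt6, whose names come from genes listed as changed, lay between 0.45 and 1.11 (Rpt1) and between 0.40 and 1.21 (Rpt6) over the larval arrays. Counting both raised the number of higher members to 10, 13 and 11 in the 3 genotypes.

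Of the Rpn genes tested, 3 of 10 were called higher in su(Hw)/Df, 4 of 9 in su(Hw)/+ and 3 of 10 in Df/+, and none lower. The shares of all probes were 14.5%, 14.6% and 9.38% higher and 13.2%, 13.7% and 10.3% lower. Rpn8 and Rpn7 had the highest mean ratios of the members in each larval genotype. Rpn8, the partner of Rpn11 in the lid, gave 1.10, 0.70 and 1.34 in the null (no value on replicate 1), 0.44, 0.65, 0.86 and 1.17 in su(Hw)/+, and 0.43, 0.84, 0.57 and 1.23 in Df/+. The null mean of 1.05 ± 0.32 (SD, n = 3) was 2.06-fold above the pool (adjusted p = 0.00198). Rpn7, a scaffold subunit of the lid, gave 0.54, 1.04, 0.49 and 1.01 in the null, 0.34, 0.66, 1.09 and 0.94 in su(Hw)/+, and 0.52, 0.76, 0.60 and 0.80 in Df/+. The null was 1.71-fold above the pool (adjusted p = 0.00186), and both genes passed the test in each genotype.

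Dye orientation moved with the level of Rpn8. On the larval arrays with the genotype in Cy5 its ratios ranged from 0.65 to 1.34 (median 1.13, n = 6), and on those with the genotype in Cy3 from 0.43 to 0.86 (median 0.57, n = 5). All lay above 0 in both orientations. The missing null array was a Cy3 array, so the null mean of Rpn8 rests on 2 Cy5 arrays and 1 Cy3 array. The part of the dye in the difference between its genotype means was not tested. For Rpt2 the medians were 0.71 in Cy5 and 0.55 in Cy3.

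Rpn13, a ubiquitin receptor, gave 0.53, 1.01, 0.61 and 0.55 in the null, 0.86, 0.033, 0.82 and 0.32 in su(Hw)/+, and 0.31, 0.14, 0.022 and -0.046 in Df/+. Rpn13 was called higher in the null (1.60-fold, adjusted p = 0.00481) and in su(Hw)/+ (1.42-fold, adjusted p = 0.0206), but not in Df/+ (adjusted p = 0.649). The difference between the heterozygotes, Df/+ minus su(Hw)/+, was -0.40 ± 0.21 (SE) and did not pass (adjusted p = 0.509), so the heterozygotes were not shown to differ. The su(Hw)/+ call was lost without su(Hw)/+ replicate 1 or 3 and when only the su(Hw)/+ arrays were fitted. Rpn2, the large scaffold subunit of the base, gave 0.18, 0.19, -0.019 and 0.57 in the null, 0.27, 0.91, 0.40 and 0.81 in su(Hw)/+, and 0.17, 0.97, 0.53 and 0.61 in Df/+. It passed in su(Hw)/+ (1.51-fold) and Df/+ (1.48-fold) and not in the null (adjusted p = 0.285). Centring the arrays ended both Rpn2 calls, and the Df/+ call was also lost without Df/+ replicate 2 or 4 and in the fit of the Df/+ arrays alone.

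The remaining Rpn genes did not pass in any larval genotype in which they were tested. Rpn12 had 2 values in su(Hw)/+ and was not tested there. Rpn11, the deubiquitinase, gave 0.24, 0.029, 0.17 and 0.023 in the null and ranged from -0.20 to 0.41 over all larval arrays. Rpn1, a ubiquitin receptor, ranged from -0.81 to 0.95, with its 2 negative values on replicate 3 of su(Hw)/+ and of Df/+. Rpn5 had the lowest Rpn mean in the null, -0.20 ± 0.11 (SE, adjusted p = 0.188). Rpn3, Rpn6 and Rpn12 likewise straddled 0.

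In the alpha ring 2, 3 and 2 of 7 members were higher in su(Hw)/Df, su(Hw)/+ and Df/+, beside 14.5%, 14.6% and 9.38% of all probes. In the null 1 of 7 was lower, near the 13.2% of all probes. Prosalpha3 gave 0.27, 0.81, 0.56 and 0.59 in the null, 0.17, 0.34, 0.59 and 0.59 in su(Hw)/+, and 0.30, 0.38, 0.29 and 0.51 in Df/+. It was called higher in each genotype, by 1.47-fold in the null. The null call was lost when only the null arrays were fitted, the su(Hw)/+ call in 4 alternatives and the Df/+ call in 11. Prosalpha5 gave 0.51, 0.72, 0.46 and 0.25 in the null, 0.67, 0.33, 0.57 and 0.38 in su(Hw)/+, and 0.33, 0.16, -0.044 and 0.19 in Df/+. It was 1.40-fold higher in both the null (adjusted p = 0.0078) and su(Hw)/+ (adjusted p = 0.00721), and was not called in Df/+. Its null call was lost when only the null arrays were fitted.

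Prosalpha2 was below the pool on all 12 larval arrays. Its ratios were -0.42, -0.67, -0.097 and -0.45 in the null, -0.20, -0.15, -0.44 and -0.43 in su(Hw)/+, and -0.23, -0.32, -0.13 and -0.30 in Df/+. The null mean of -0.41 ± 0.24 (SD, n = 4) was 1.33-fold below the pool and passed (adjusted p = 0.019), while su(Hw)/+ (adjusted p = 0.0605) and Df/+ (adjusted p = 0.153) did not. The null call did not survive removal of the first or of the second null array, nor a fit in which the spread came from the null arrays alone. Prosalpha4 was called higher in su(Hw)/+ only (0.41 ± 0.12, SE) and Prosalpha1 in Df/+ only (0.41 ± 0.13, SE). The Prosalpha4 call was lost in 4 alternatives and the Prosalpha1 call in 13. The differences between the heterozygotes for Prosalpha4 and Prosalpha1 did not pass (adjusted p = 0.627 and 0.836). Prosalpha6 and Prosalpha7 were not called, with means from -0.068 to 0.20 and arrays on both sides of 0.

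Among the beta subunits only the probe of the catalytic subunit Prosbeta5 passed a test. It gave 0.59, -0.018, 0.59 and 0.25 in the null, 0.73, 0.63, 0.54 and 0.33 in su(Hw)/+, and 0.36, 0.55, 0.54 and 0.35 in Df/+. It was called higher in su(Hw)/+ (1.47-fold, adjusted p = 0.00517) and in Df/+ (1.36-fold, adjusted p = 0.0243), and it lay just outside the threshold in the null (adjusted p = 0.0505). The Df/+ call was lost without Df/+ replicate 2 or 3 and in the fit of the Df/+ arrays alone. Prosbeta2, the other catalytic subunit measured, gave -0.082, 0.25, -0.24 and -0.21 in the null, 0.24, -0.36, -0.15 and -0.17 in su(Hw)/+, and -0.31, -0.31, -1.58 and -0.14 in Df/+. It passed in no genotype, and its lowest value was again on Df/+ replicate 3, the array with the lowest Rpt5 value. Prosbeta3, Prosbeta4 and both Prosbeta7 probes passed in none of the 3 genotypes, with means from -0.32 (Prosbeta4 in Df/+) to 0.37 (the first Prosbeta7 probe in su(Hw)/+). The second Prosbeta7 probe had means of 0.048, 0.13 and 0.062.

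Taken by class on each array, the median over the Rpt probes lay above the median over the 6 beta ring probes on all 12 larval arrays, by 0.38 to 0.77 (median 0.57). The Rpt median was over 4 probes, except on Df/+ replicate 2, where Rpt4 had no value and it was over 3. The Rpt median lay above the alpha ring median on 12 arrays, above the Rpn median on 11, and above the median of all probes on 12, by 0.32 to 0.78. The alpha ring median lay above that of all probes on 12 of the 12 arrays, by 0.015 to 0.43, the Rpn median on 10 and the beta ring median on 7. The arrays share the pool RNA and each probe its own hybridisation properties, so these are counts of arrays and not independent repeats. The values are ratios, and give no level of one subunit against another.

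**Figure D2:**
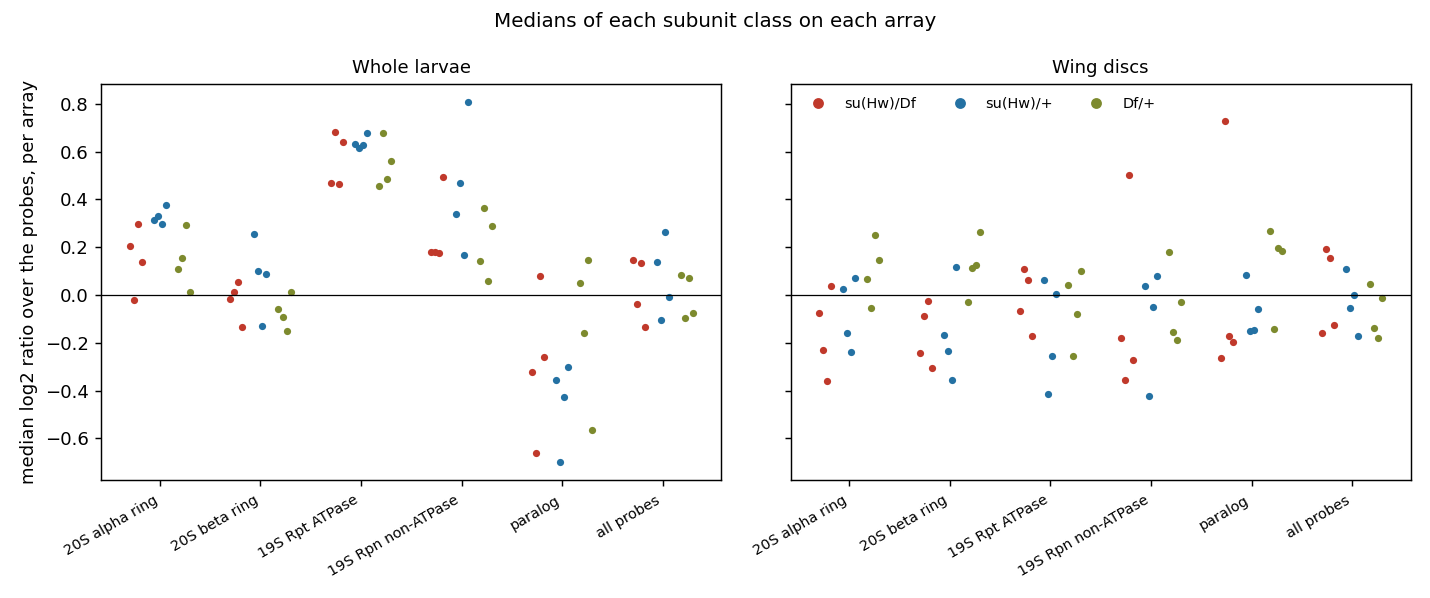
Median log2 ratio to the wild-type pool over the probes of each class (vertical axis), with 1 point per array, for whole larvae (left) and wing discs (right), coloured by genotype. In larvae the Rpt medians run from 0.45 to 0.68, above all beta ring medians, which run from -0.15 to 0.25; in discs the classes overlap.

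Genes typical of larval tissues were counted in the same comparisons, to be read beside the shares of all probes given above. Of the fat body genes tested, 5 of 6 were higher in su(Hw)/Df (array medians 0.70 to 1.05), 5 of 6 in su(Hw)/+ (0.25 to 0.88) and 1 of 6 in Df/+ (-0.15 to 0.71), and none was lower. Of the haemocyte genes, 6 of 10, 2 of 10 and 1 of 8 were higher and 1 was lower in each genotype. Of the muscle genes, 2 of 12, 2 of 11 and 1 of 11 were higher and 1, 3 and 2 lower. Midgut genes were 3, 4 and 4 of 18 higher and 8, 3 and 2 lower, and wing disc genes 3 of 17, 2 of 18 and 1 of 16 higher and 1, 1 and 2 lower. Most muscle and wing disc counts lay near the shares of all probes. Against the mean of both heterozygotes, 7 of 18 midgut genes were lower in the null and 1 was higher (median -0.80). The shares of all probes were 1.76% lower and 1.09% higher there. In that comparison 1 of 11 muscle genes and 1 of 19 testis genes were higher, and no fat body, haemocyte or wing disc gene was called. In whole larvae, a change in the number of cells of a type and a change in RNA per cell cannot be told apart. The part of these tissues in the subunit ratios was not tested.

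No paralog was called above the pool in larvae. In su(Hw)/+ larvae 5 of the 10 paralogs tested were lower than the pool and none was higher, beside 13.7% of all probes lower. In su(Hw)/Df none of 13 passed in either direction (2 at an unadjusted p under 0.05), beside 13.2% of all probes lower. In Df/+ 1 of 14 was lower, beside 10.3% of all probes. Rpn12R, the copy of a lid subunit, was below the pool on all 12 arrays, with -0.66, -0.70, -0.063 and -0.45 in the null, -1.03, -1.05, -0.079 and -0.97 in su(Hw)/+, and -0.46, -0.86, -0.38 and -1.04 in Df/+. It was 1.72-fold lower in su(Hw)/+ (adjusted p = 0.00564) and 1.61-fold lower in Df/+ (adjusted p = 0.0165), and its null mean of -0.47 did not pass (adjusted p = 0.065). The Df/+ call was lost when Df/+ replicate 2 or 4 was left out.

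Prosbeta5R2, a copy of the chymotrypsin-like subunit, gave -0.33, -0.68, -0.048 and -0.35 in the null, -1.17, -0.70 and -0.94 in su(Hw)/+ (no value on replicate 1), and -0.11, -1.21 and 0.48 in Df/+ (no value on replicate 4). It was 1.91-fold lower in su(Hw)/+ (adjusted p = 0.0194). Its larval median was -0.94 with the genotype in Cy5 and -0.11 with the genotype in Cy3. The missing su(Hw)/+ array was a Cy3 array and the missing Df/+ array a Cy5 array, so neither mean was balanced by dye. The other paralogs called lower in su(Hw)/+ also differed by dye over the larval arrays. Rpn12R and Prosbeta4R2 had lower medians in Cy5 (-0.91 and -0.77) than in Cy3 (-0.42 and -0.20). Prosalpha6T and Rpn13R went the other way, with -0.23 and 0.0042 in Cy5 and -0.54 and -0.38 in Cy3. The part of the dye in any of these ratios was not tested. Prosbeta4R2 gave -0.52, -0.85, 0.24 and -0.28 in the null, -0.60, -0.89, -1.19 and -0.49 in su(Hw)/+, and 0.12, -0.72, 0.21 and -0.81 in Df/+. The su(Hw)/+ arrays were all negative, at 1.73-fold below the pool (adjusted p = 0.0119), and overlapped those of the other genotypes.

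Prosalpha6T and Rpn13R were the other paralogs called in su(Hw)/+. Prosalpha6T gave -0.80, 0.31, 0.28 and 0.25 in the null, -0.89, -0.75, -0.43 and -0.30 in su(Hw)/+, and -0.66, -0.16, 0.33 and -0.49 in Df/+. Rpn13R gave -0.34, 0.11, 0.0080 and -0.082 in the null, -0.51, -0.94, -0.49 and -0.11 in su(Hw)/+, and -0.42, 0.090, 0.013 and 0.13 in Df/+. Their su(Hw)/+ means of -0.59 and -0.51 were lower than the pool, with adjusted p of 0.0402 and 0.0172. The Prosbeta4R2, Prosalpha6T and Rpn13R calls were lost in 1, 4 and 2 alternatives. Without su(Hw)/+ replicate 2 or replicate 3 the number of lower members in that genotype was 2 in place of 5. In both of these fits Prosbeta5R2 had too few values to be tested, so not all of that fall was lost calls.

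The difference between the heterozygotes was tested after these counts were seen. None of the 36 members tested differed between Df/+ and su(Hw)/+ larvae (1 at an unadjusted p under 0.05), beside 0.272% of all probes. Rpn13R had the smallest adjusted p, with a difference of 0.47 ± 0.20 (SE, adjusted p = 0.406), and Prosbeta5R2 the largest paralog difference, 0.66 ± 0.36 (SE, adjusted p = 0.556). The call in one heterozygote and not in the other is therefore not shown to be a difference between them.

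**Figure D3:**
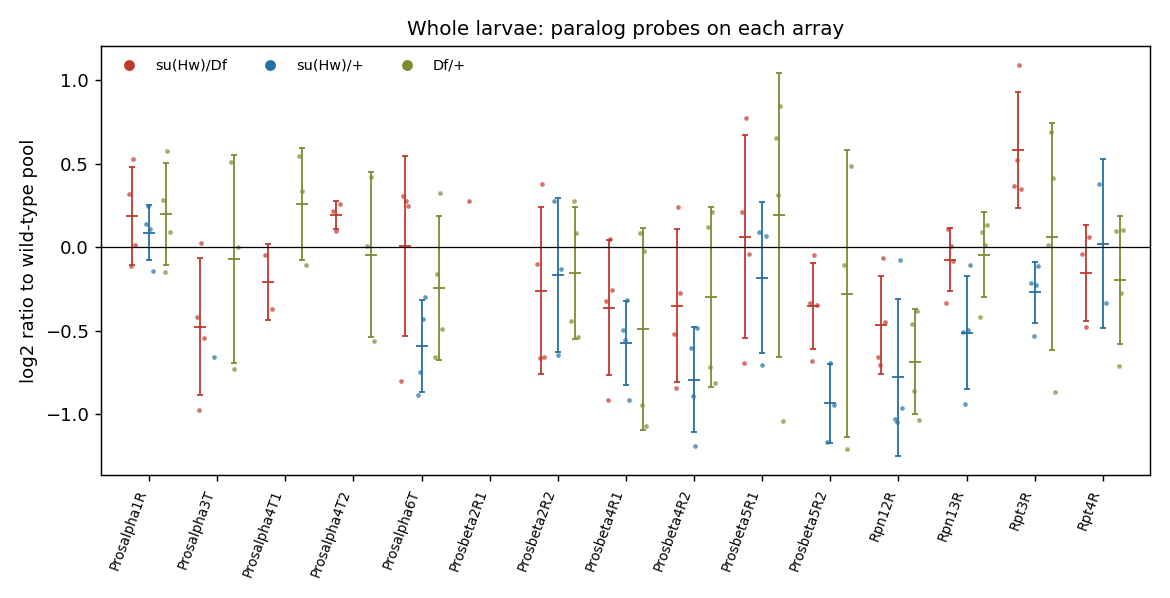
Log2 ratio to the wild-type pool (vertical axis) of the 15 paralog probes in whole larvae; points are single arrays, ticks are genotype means and bars are SDs where a genotype had more than 1 value. Rpn12R lies below 0 on all 12 arrays, and Prosbeta2R1 has a single value.

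Testis is the tissue for which several of these paralogs are known. Of the testis genes tested, 13 of 20 were lower in su(Hw)/+ (array medians -1.13 to -0.25), 5 of 23 in su(Hw)/Df (-0.43 to 0.032) and 4 of 22 in Df/+ (-0.54 to 0.25), and none was higher, beside 13.7%, 13.2% and 10.3% of all probes lower. The list medians were -0.71 in su(Hw)/+, -0.08 in su(Hw)/Df and -0.06 in Df/+. The sperm genes dj and Mst87F had su(Hw)/+ means of -1.60 and -1.59. The part of testis RNA in the paralog ratios was not tested. The other paralogs were not called in any genotype in which they had enough values to be tested. Prosalpha1R, Prosbeta5R1 and Prosbeta2R2 had means between -0.26 and 0.20, and Prosbeta4R1 had means of -0.36, -0.57 and -0.49, just outside the threshold in su(Hw)/+ (adjusted p = 0.0503). Prosalpha3T, Prosalpha4T1, Prosalpha4T2 and Rpt4R had values on 8, 5, 6 and 9 of the 12 arrays, too few in su(Hw)/+ to be tested there. Prosbeta2R1 had 1 value, 0.28, and was not tested.

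The null was also compared with the heterozygotes, which came from a different cross. None of the 36 members tested in larvae differed between su(Hw)/Df and the mean of both heterozygotes, beside 2.84% of all 8197 probes tested, and only the probe of Rpt3R had an unadjusted p under 0.05. With so small a share of all probes called, a count of 0 among 36 is close to the background. Rpt3R, a copy of an ATPase subunit, gave 0.37, 0.52, 1.09 and 0.35 in the null, -0.21, -0.53, -0.22 and -0.11 in su(Hw)/+, and 0.016, 0.69, 0.41 and -0.87 in Df/+. The null arrays lay above every su(Hw)/+ array and overlapped those of Df/+. The difference was 0.69 with a 95% interval of 0.15 to 1.23 before adjustment (adjusted p = 0.181).

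The intervals show how large a change could have been missed. For Rpt2 the difference was -0.0026 (95% interval -0.28 to 0.28) and for Rpt3 -0.078 (-0.38 to 0.22). For Rpn8 it was 0.27 (-0.20 to 0.75), for Rpn13 0.37 (-0.011 to 0.75) and for Rpn2 -0.35 (-0.75 to 0.044). For Rpt4 it was -0.12 (-0.43 to 0.18) and for Rpt5 0.10 (-0.48 to 0.69). The intervals of Rpt2, Rpt3 and Rpt4 were thus narrower than those of Rpt5 and Rpn8. For Prosbeta5 the difference was -0.15 (-0.47 to 0.17), and for Rpn11 0.07 (-0.23 to 0.37). The median half-width over the 36 members was 0.37. No member had all its null arrays outside the range of the heterozygote arrays in larvae, beside 3.46% of all probes.

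**Figure D4:**
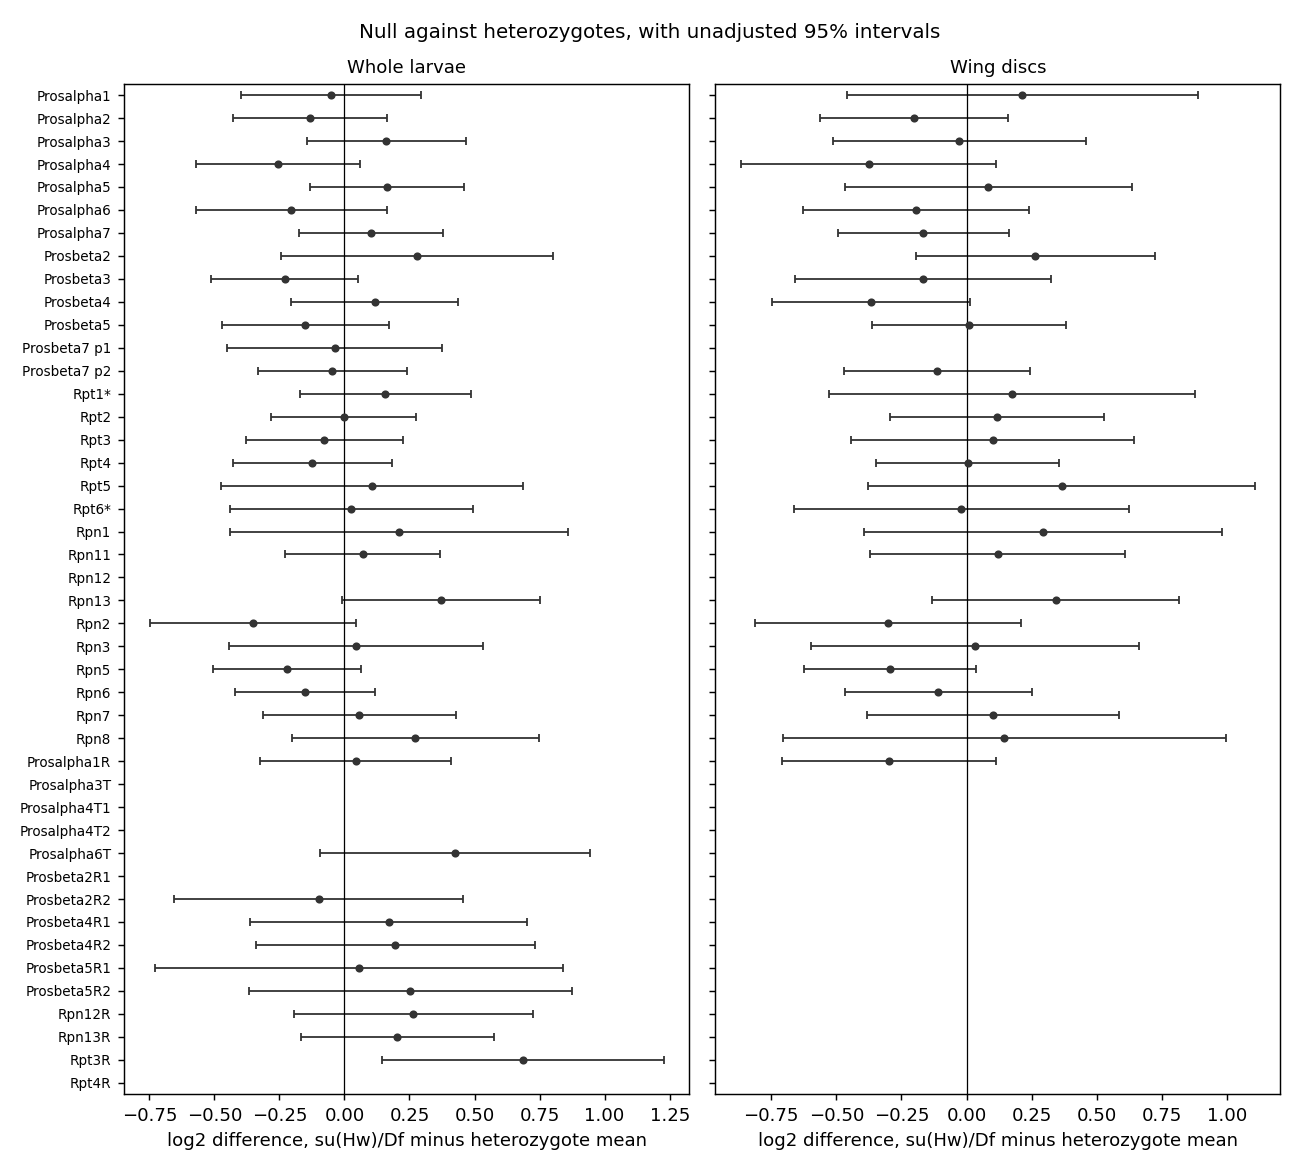
Difference in log2 ratio between su(Hw)/Df and the mean of both heterozygotes (horizontal axis) for each member, with unadjusted 95% intervals, in whole larvae (left) and wing discs (right); members with too few values have no point and asterisks mark Rpt1 and Rpt6. The largest larval difference is Rpt3R at 0.69, and no member passed after adjustment.

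In wing discs no member was called in any comparison. Of the members tested against the pool, 0 of 26 passed in su(Hw)/Df (2 at an unadjusted p under 0.05), 0 of 28 in su(Hw)/+ (4) and 0 of 31 in Df/+ (0), beside 0.873%, 0.595% and 0.163% of all probes. Against the heterozygotes 0 of 26 passed (0 at an unadjusted p under 0.05), beside 0.0901% of all 5550 probes. No member's null arrays lay outside the heterozygote range, beside 0.432% of probes. With so few probes called over the whole array, these counts say little about the members in particular. Fat body genes were called lower than the pool for 1 of 5, 2 of 5 and 0 of 6 tested, in that order. Their median was below 0 on every disc array (-2.35 to -0.335). No haemocyte, muscle, midgut, testis or wing disc gene was called. Midgut array medians ran from -0.44 to 0.31, -0.94 to -0.23 and -0.23 to 1.96. The part of other tissues in the disc ratios was not tested.

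Over all genotypes, the disc values of the genes that stood out in larvae fell on both sides of 0, though the null arrays of Rpt2 were all above 0. Rpt2 gave 0.12, 0.17, 0.050 and 0.06 in the null, 0.24, -0.60, -0.25 and -0.033 in su(Hw)/+, and 0.52, -0.27, 0.17 and 0.08 in Df/+. Rpn8 gave -0.47, 0.89, 0.52 and -0.71 in the null, 0.77, -1.25, 0.014 and 0.48 in su(Hw)/+, and 0.46, -1.09, -0.43 and 0.33 in Df/+. The Rpn8 arrays of each genotype fell on both sides of 0, over a wider range than in larvae.

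Rpn7 gave -0.18, 0.45, 0.48 and -0.08 in the null discs, and Prosalpha2, below the pool on every larval array, gave -0.074, -0.23, -0.40 and 0.20. The lowest unadjusted p among members was that of Prosbeta2 in su(Hw)/+, with a ratio of -0.51 ± 0.17 (SE, adjusted p = 0.507). Rpt5 in the same genotype had a mean of -0.80 ± 0.28 (SE, adjusted p = 0.576) and included -1.97 on replicate 2, an array with few values. Of the paralogs only 1 had enough disc values to be tested in the null (Prosalpha1R), and 10 of the 15 had 4 values or fewer over the 12 disc arrays.

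**Figure D5:**
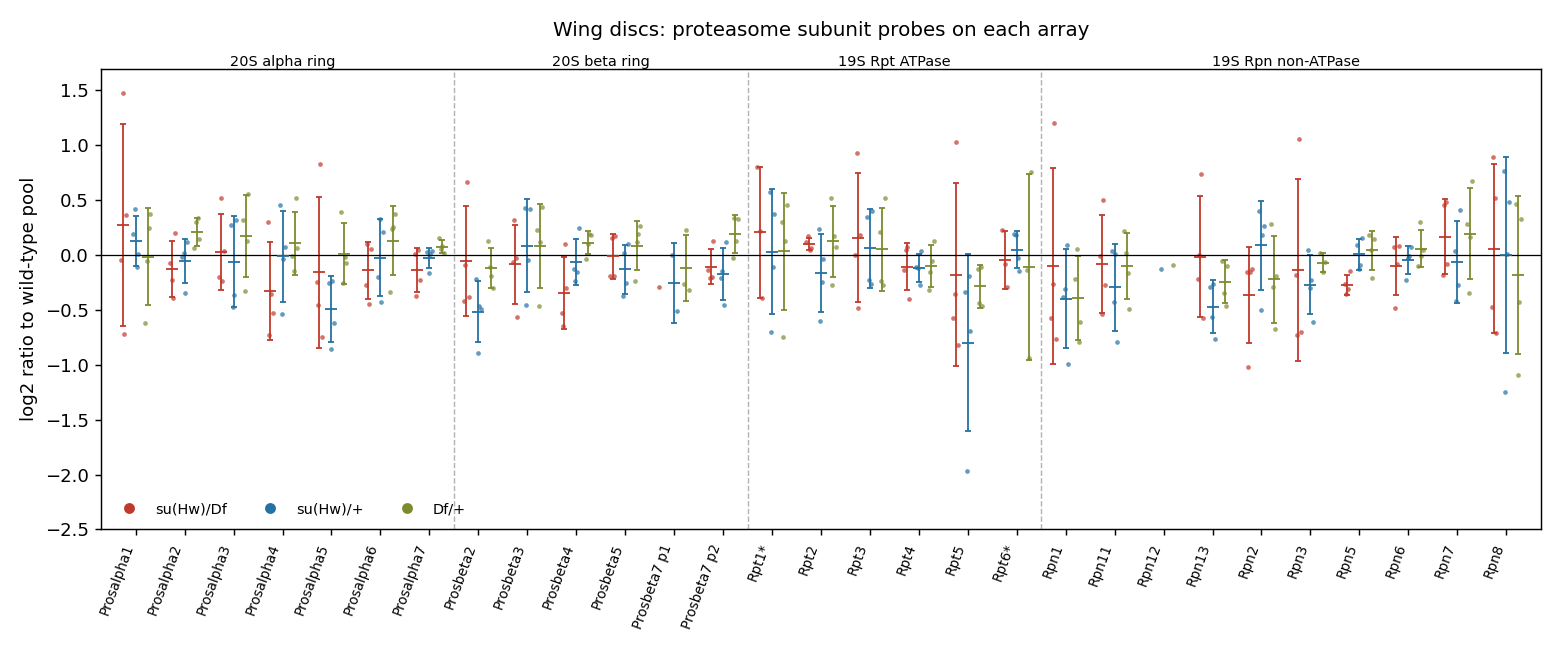
Log2 ratio to the wild-type pool (vertical axis, on the same scale as for larvae) of each subunit probe in wing discs; points are single arrays, ticks are genotype means and bars are SDs, coloured by genotype, and asterisks mark Rpt1 and Rpt6. Points of most probes lie on both sides of 0, with Rpt5 down to -1.97 and Prosalpha1 up to 1.48.

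Precision in discs was lower. The median half-width of the 95% interval of the null against the heterozygotes was 0.48 in discs, and for Rpt2 the interval ran from -0.29 to 0.53. Disc RNA was amplified before labelling and the arrays of each tissue were normalised separately, so levels of the 2 tissues were not compared. The difference between tissues in the effect of the null against the heterozygotes could be tested for 26 members. None passed (1 at an unadjusted p under 0.05, Prosbeta4 with 0.48 and a 95% interval of 0.02 to 0.95), and over all 5105 probes the share called was 0%. Whether the ratios of the Rpt genes to the pool differ between larvae and discs was not tested.

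The other lists of the ubiquitin pathway are given beside the shares of all probes above, 14.5%, 14.6% and 9.38% higher and 13.2%, 13.7% and 10.3% lower in su(Hw)/Df, su(Hw)/+ and Df/+, and none was tested against the Rpt genes. Of the genes for ubiquitin, ubiquitin-like proteins and their activating enzymes, none of 8 was higher in any larval genotype and 4, 4 and 2 were lower in su(Hw)/Df, su(Hw)/+ and Df/+, among them RpS27A, a ubiquitin fusion gene, at -0.43, -0.68 and -0.71. Of the proteasome regulators and assembly factors, 2, 1 and 0 of 9 were higher and 1 was lower in each genotype. PSMG1, named for an assembly chaperone of the alpha ring, was the lower gene, at -0.55, -0.44 and -0.51, and Uch-L5, a deubiquitinase that binds Rpn13, was higher in the null (0.52 ± 0.13, SE, adjusted p = 0.0127).

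The shuttle factors and cofactors of the p97 ATPase had medians of 0.29, 0.31 and 0.14, with the list median above 0 on every larval array. Among them 2, 3 and 1 of 9 were higher and 1 was lower in each genotype: Plap, which binds ubiquitin, had ratios of 0.87, 0.79 and 0.76, and Rad23, which delivers substrates to the proteasome, -0.51, -0.67 and -0.59. Of the conjugating and ligase enzymes, 1 of 26, 1 of 27 and 1 of 27 were higher and 4, 6 and 5 lower, the lower counts being near the share of all probes in the null. In the list of regulators of proteasome gene expression, cnc encodes CncC, which activates proteasome genes in Drosophila. The cnc ratio was higher in su(Hw)/Df (0.76 ± 0.14, SE, adjusted p = 0.00153) and Df/+ (0.53 ± 0.14, SE, adjusted p = 0.0178). It was not called in su(Hw)/+, and these calls do not show a difference between the genotypes. In discs cnc was the only gene of these 5 pathway lists called (0.88 ± 0.14, SE, adjusted p = 0.00842 in the null). The other genes of the list that holds cnc were higher in no larval genotype, sxc was lower in each, and crc was lower in su(Hw)/Df and su(Hw)/+. Against the heterozygotes, no gene of the 5 lists was called in larvae or discs.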

How the data were processed

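The authors hybridised each genotype with the wild-type pool on FL002 long oligonucleotide arrays in dye swap, scanned them on an Axon scanner, found spots with Dapple and normalised with a custom implementation of variance stabilisation, larval and disc slides separately, with tool versions not given in the sources used here. Larval RNA was labelled directly, disc RNA after T7 amplification. The deposited values are log2 ratios (on a generalised log scale) of genotype to pool, with dye swaps already turned; all value columns were assigned to samples (0 unused).

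Of 17258 spots, the 714 control probes (3 or more spots each) were left out, leaving 14444 probes with 1 spot each; 12532 had 1 symbol in the platform table, 12494 of them matched to the RefSeq gene table (Release 6). Genotype means of the 12 arrays of a tissue were fitted with limma 3.58.1 in R 4.3.3, on probes measured on 3 or more arrays of every genotype in the comparison; p-values were adjusted by Benjamini-Hochberg over all probes tested. The fit was tested on simulated data. Replicates were separate biological samples according to the study's methods. No counts exist, so precision is limited by the number of arrays.

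Members and gene lists were chosen with earlier results of these data known, so no test over a list was made. Named genes are the 5 largest called changes in each direction of each comparison, the catalytic subunits, Rpt ATPases, Rpn11 and ubiquitin receptors, paralogs with values, and the extremes of each role; from the lists, up to 3 called genes in each direction. Same-numbered replicates did not pair the samples. Alternatives tried were array centring, dye as a covariate, the replicate number as a block, other filters, array weights, fits of only the genotypes compared, left-out arrays and, after seeing the data, Rpt1 and Rpt6 as members.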

Additional observations from a re-analysis of the deposited data

Results flagged for a closer look

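In 6 of 128 groups of 4 arrays, a single array stood apart from the others by Dixon's criterion; chance gives about 1 in 20 groups. In su(Hw)/Df larvae, Prosalpha6T was -0.80 on replicate 1 against 0.25 to 0.31 on the others. In su(Hw)/+ larvae, Rpn12R was -0.079 on replicate 3 against -1.05 to -0.97. In su(Hw)/Df larvae, Rpn13 was 1.01 on replicate 2 against 0.53 to 0.61. In su(Hw)/Df discs, Rpn2 was -1.02 on replicate 2 against -0.16 to -0.13. The median over the Rpn probes in su(Hw)/Df larvae was 0.49 on replicate 4 against 0.18 on each of the others. The median over the paralog probes in su(Hw)/Df discs was 0.73 on replicate 2 against -0.27 to -0.17, and that array gave values for 34.4% of probes. The Rpn12R call in su(Hw)/+ and the Rpn13 call in su(Hw)/Df passed under every alternative run.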

How the results depend on the processing

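The 41 called member results (Rpt1 and Rpt6 included) gave 763 values under the alternatives: 702 stayed past the threshold, 61 lost the call and 0 changed direction. Rpn7, Rpn8 and Rpt2 kept their calls against the pool in each larval genotype under every alternative in which they could be tested. So did Rpt1 and Rpt6, but their names come from the study's tables of changed genes. Their calls, which are among those counted above, are therefore a selection on the outcome. Rpn8 and Rpt6 had 3 values in the null. Neither was tested there at 4 values per genotype, or when 1 of those 3 arrays was left out. With arrays centred on their medians, 2 members were lower in su(Hw)/Df (in place of 1), 8 lower in su(Hw)/+ (5) and 5 higher in Df/+ (9). With dye orientation as a covariate, 3, 8 and 4 were lower in su(Hw)/Df, su(Hw)/+ and Df/+ (in place of 1, 5 and 1). With only the genotypes compared in the fit, 4 were higher and 0 lower in su(Hw)/Df (in place of 8 and 1) and 4 higher in Df/+ (9). At least 4 values per genotype gave 2 lower in Df/+, and array weights also gave 2 (in place of 1). For these shifts the cause was not tested. Spots were not averaged by their median, since each analysed probe has 1 spot, and for the null against the heterozygotes a fit of only those genotypes is the same fit.

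With the replicate block, 3 members were lower in su(Hw)/Df and 4 in Df/+ (in place of 1 and 1), 10 higher in su(Hw)/Df, and no call was made against the heterozygotes or in discs. Deviations of same-numbered arrays correlated from -0.028 to 0.54 in larvae and from -0.12 to 0.62 in discs, and 6 and 7 of the 12 arrays correlated best with their own number, so the numbers were not taken to pair the samples.

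Leaving out single larval arrays gave 7 to 9 higher and 0 to 2 lower in su(Hw)/Df, 9 to 12 higher and 2 to 7 lower in su(Hw)/+, and 5 to 9 higher and 0 to 2 lower in Df/+. A member with 3 values in a genotype was not tested there when 1 of those arrays was left out. Some of these falls therefore include a member not tested as well as lost calls. The lower call in su(Hw)/Df was lost without su(Hw)/Df replicate 1 or 2 (0 called) and 2 were called without su(Hw)/Df replicate 3 or su(Hw)/+ replicate 3. Without Df/+ replicate 2, 3 or 4 the higher calls in Df/+ fell to 5, without Df/+ replicate 2 no member was lower, and without Df/+ replicate 1 there were 2. No disc count moved, with or without the 3 arrays that gave few values. Without single disc arrays, the median over the members tested in su(Hw)/Df against the pool ran from -0.16 to 0.010. The number of arrays limits the precision of every value.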

Other observations

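In the gene order of the Release 6 table, the member nearest to su(Hw) on chromosome arm 3R was Prosalpha2, 287 gene entries away, followed by Rpt3R, 711 entries away.
The lowest Df/+ larval values of Rpn1 (-0.61), Rpt5 (-1.15) and Prosbeta2 (-1.58) all fell on replicate 3.
The dye orientations also differed for Rpn3, with a median of 0.36 over the 6 Cy5 larval arrays and -0.14 over the 6 Cy3 larval arrays, which cancel in a genotype mean that holds both orientations equally.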
